A study of Mus musculus with 3 samples.

Results

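The genes described here carry membrane between the compartments of the cell, and 134 of them were on the array, out of 16390 genes with a named probe. They were taken by name: every gene whose symbol in the array's annotation starts with Rab, Vps, Snx, Stx, Vamp or Snap followed by a digit. No measured value enters that rule, but the pattern and the role groups below were drawn up with earlier results of these data known. The names comprise 63 Rab genes (52 small GTPases and 11 proteins that bind or regulate them), 12 syntaxins, 5 Vamp genes, 4 Snap genes, 27 Vps genes and 23 sorting nexins. A name is not always a function: Vps72 encodes a chromatin remodelling subunit, and Snap91 a clathrin assembly protein unrelated to the SNARE proteins of similar name. Under current symbols, 8 of the genes have other names (Dennd5a, Erc1, Rab29, Rab6a, Rab2a, Arhgap33, Chmp3 and Vps26a), which are used below, and Rab1 kept the symbol of the annotation because that older name is held by more than 1 gene.

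RNA came from freshly isolated, sorted cells of IL-10 Venus reporter mice. Their Il10-expressing cells glow with Venus, a fluorescent protein, and Il10 encodes the cytokine interleukin 10. The 3 populations were Venus+ CD138hi cells of the bone marrow, Venus+ CD138hi cells of the spleen and B220+ cells of the spleen. Plasma cells carry CD138, also named syndecan-1, on their surface, and B cells carry B220, a form of CD45. The labels name no Venus or CD138 gate for the B220+ sort, and the sources used here do not give the age, sex or number of the mice. Each population was hybridized to 1 single-colour array, so no difference below has a replicate check, none was tested, and array and population cannot be told apart. Bone marrow Venus+ and B220+ cells differ in organ as well as in cell type.

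Rab GTPases are molecular switches that mark each compartment of the secretory and endocytic pathways and recruit the machinery for vesicle movement, tethering and fusion. SNARE proteins on vesicle and target (the syntaxin, Vamp and SNAP-25 families) zip together to fuse the membranes. Sorting nexins and Vps complexes (retromer, HOPS and CORVET, GARP, ESCRT) sort cargo in endosomes, sending it back to the Golgi or surface or on to the lysosome. In the B cell lineage, B cells take up antigen through endosomes for presentation, while plasma cells devote their membrane traffic to the export of antibody from the endoplasmic reticulum (ER) through the Golgi.

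Signals were normalized so that the median detected signal of each array was 25, and a probe counted as detected at 2 SD above the blank spots. On the bone marrow Venus+, spleen Venus+ and B220+ arrays, 67.6%, 73.4% and 72.1% of the 23473 probes were detected, and the lowest detected signals were 2.35, 1.74 and 1.34. Il10 had signals of 91.3 in bone marrow Venus+, 88.8 in spleen Venus+ and 5.94 in B220+ cells, and Sdc1, which encodes CD138, had 220, 128 and 2.49 on the same arrays. Of the plasma cell markers detected on both arrays, 6 of 6 were at least 2-fold higher in each Venus+ population than in B220+ cells. Mature B cell markers were at least 2-fold lower in 6 of 7 for bone marrow Venus+ and in 8 of 8 for spleen Venus+ cells. Markers of other cells also moved with the groups. The summed signal of 8 T cell genes was 1588 in bone marrow Venus+, 1294 in spleen Venus+ and 42.3 in B220+ cells. Most of it came from Cd247 (1038, 637 and 15.7) and Cd28 (477, 528 and 5.52). The others were dimmer and did not move as one. Cd3e and Cd3g were not detected in B220+ cells, and Cd3d had 24.5, 39.3 and 7.89 in the same order. Cd4 had 15.0, 11.0 and 6.66, and Cd8a stayed within 2-fold of B220+ cells (7.20, 4.39 and 4.94). Thy1 was not detected in bone marrow Venus+ cells and had 11.2 in spleen Venus+ and 1.64 in B220+ cells. The summed signal of 8 neutrophil genes was 547 in bone marrow Venus+, 129 in spleen Venus+ and 5057 in B220+ cells, with 8, 4 and 8 of them detected. Its members did not move as one: S100a9 had 69.4 in bone marrow Venus+ and 2552 in B220+ cells and was not detected in spleen Venus+ cells, while Ly6g had 334 in bone marrow Venus+, 99.6 in spleen Venus+ and 38.9 in B220+ cells. Mpo had 29.8 in bone marrow Venus+ and 2.22 in B220+ cells and was not detected in spleen Venus+ cells. The summed signal of 5 basophil and mast cell genes was 164 in bone marrow Venus+, 63.7 in spleen Venus+ and 40.6 in B220+ cells, with 3, 3 and 4 of them detected. Most of the Venus+ sums came from Mcpt8 (143 in bone marrow Venus+, 43.0 in spleen Venus+ and 17.5 in B220+ cells), and Fcer1a was not detected on any array. The part of these cells in the results below was not tested. In sorted bulk samples, fewer cells of a type and less RNA per cell cannot be told apart.

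Detection of the 134 genes was common. Of them, 111 (82.8%) were detected on all 3 arrays, against 65.7% of all genes, 11 were detected on 2 arrays, 3 on 1 array and 9 on none. The 9 undetected genes were Rab3c, Rab11fip2, Rab13, Rab15, Rab25, Rab33a, Snx7, Snx24 and Stx3. By array, 115 were detected in bone marrow Venus+, 123 in spleen Venus+ and 120 in B220+ cells. A ratio is given below where a gene was detected on both arrays, as log2 of the Venus+ over the B220+ signal, or of bone marrow over spleen Venus+. Its ± is a spot error, which combines the spread of blank and of replicate control spots within the arrays and leaves out the spread between mice or sorts. Genes are called higher or lower at a difference of 2-fold or more.

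In the spleen, Venus+ plasma cells differed from B220+ cells by at least 2-fold at a minority of these genes. Of 118 genes detected on both arrays, 8 (6.78%) were higher in spleen Venus+ cells, where 15.7% of all 11618 genes were, and 16 (13.6%) were lower, where 16.5% of all genes were. The remaining 94 differed by less than 2-fold. Their median log2 ratio was -0.19, against -0.02 for all genes, and 75 of the 118 ratios were below 0. The 8 higher genes were Rab3b, Vps26b, Vps52, Rab3d, Rab20, Rab11fip1, Stx5a and Rab6a. Both shares of called genes were below those of all genes.

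In bone marrow Venus+ cells the lower side was larger. Of 111 genes detected there and in B220+ cells, 12 (10.8%) were higher in bone marrow Venus+ cells, against 22.4% of all 10813 genes, and 41 (36.9%) were lower, against 30.7% of all genes. The median log2 ratio of these genes was -0.70. All genes together were shifted to -0.24 in this comparison, so the median lay 0.45 below that of all genes. Counted from the median of all genes in place of 0, 17 genes were higher by at least 1 on the log2 scale and 32 were lower. The count thus depended on where the arrays were centred. The 2 Venus+ comparisons share the B220+ array, so a low or high B220+ signal enters both.

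**Figure D1:**
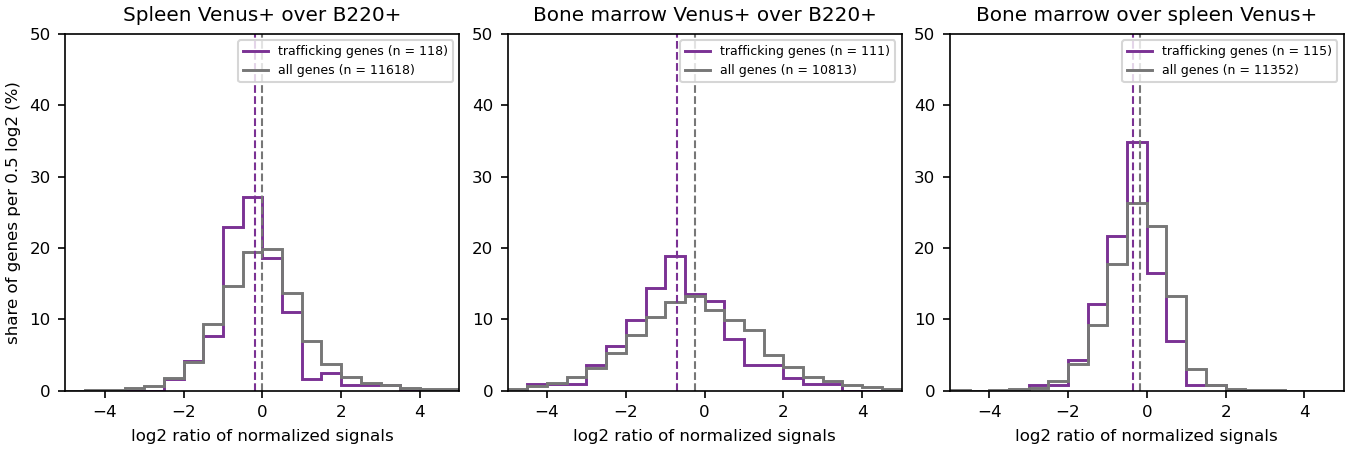
Share of genes (y axis, percent of the genes detected on both arrays) by log2 ratio of signals (x axis, drawn from -5 to 5; a few genes lie beyond it), for the 134 trafficking genes and for all genes, in the 3 comparisons. The bulk of the trafficking genes lies near 0, with medians of -0.70 for bone marrow Venus+ over B220+ cells, -0.19 for spleen Venus+ over B220+ cells and -0.36 for bone marrow over spleen Venus+ cells.

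Of the 52 Rab GTPases, 41 were measured in bone marrow Venus+ and B220+ cells, with 8 (19.5%) higher and 9 (22%) lower. Among all genes 22.4% were higher and 30.7% lower there. In spleen Venus+ and B220+ cells 43 were measured, with 4 (9.3%) higher and 3 (6.98%) lower. The shares of all genes there were 15.7% and 16.5%. Median log2 ratios over B220+ cells were -0.38 for bone marrow and -0.11 for spleen Venus+ cells.

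Rabs of the ER and Golgi tended towards higher signals in bone marrow Venus+ cells, with a median log2 ratio of 0.44 over 9 measured genes, and lay near 0 in spleen Venus+ cells, with a median of 0.10 over 10. The bone marrow median depended on the background correction: with a model-based correction (normexp) it was -0.02. Normexp as run here also adds an offset of 50 to every corrected spot, which narrows the ratios of dim genes by construction. Rab6a, which directs traffic within and out of the Golgi, had signals of 991 in bone marrow Venus+, 576 in spleen Venus+ and 272 in B220+ cells. Its signal was thus highest in bone marrow Venus+ and lowest in B220+ cells, with log2 ratios over B220+ cells of 1.86 ± 0.13 and 1.08 ± 0.14 for bone marrow and spleen. Its paralogue Rab6b was dim throughout, at 5.85 in bone marrow Venus+, 3.72 in spleen Venus+ and 2.54 in B220+ cells, and was higher in bone marrow Venus+ cells with a wide error (1.20 ± 0.50). Rab2a, which acts between ER and Golgi, had 742 in bone marrow Venus+, 454 in spleen Venus+ and 356 in B220+ cells, 2.08-fold higher in bone marrow Venus+ cells than in B220+ cells. The bright Rab1 probe (389, 274 and 287), for another ER-to-Golgi GTPase, stayed within 2-fold in both comparisons with B220+ cells. Rab30, a Golgi Rab, had 132 in bone marrow Venus+, 226 in spleen Venus+ and 119 in B220+ cells, 1.89-fold higher in spleen Venus+ than in B220+ cells.

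Not every Golgi Rab moved that way. Rab33b had 53.5 in bone marrow Venus+, 59.9 in spleen Venus+ and 118 in B220+ cells and was lower in bone marrow Venus+ cells (log2 ratio -1.14 ± 0.14), with -0.98 ± 0.14 in spleen Venus+ cells. Rab19 was lower in bone marrow Venus+ cells alone (-1.03 ± 0.14), with signals of 41.3 there, 76.8 in spleen Venus+ and 84.3 in B220+ cells. Rab34 was not detected in bone marrow Venus+ cells, had 6.49 in spleen Venus+ and 13.3 in B220+ cells, and was at least 5.66-fold lower in bone marrow Venus+ cells than in B220+ cells. Rab36 was detected in bone marrow (6.31) and spleen (4.74) Venus+ cells and not in B220+ cells, which makes it at least 4.70-fold higher in bone marrow and at least 3.53-fold higher in spleen Venus+ cells.

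The exocytic Rabs, which bring secretory vesicles to the plasma membrane, were the Rab group with the highest medians: 0.78 for bone marrow and 0.62 for spleen Venus+ over B220+ cells, over 9 measured genes each, with 7 of 9 above 0 in both. Rab3b had signals of 25.0 in bone marrow Venus+ and 40.0 in spleen Venus+ cells, against 4.89 in B220+ cells, or 5.11-fold higher in bone marrow and 8.18-fold higher in spleen Venus+ cells. Rab3d had 62.7 in bone marrow Venus+, 58.2 in spleen Venus+ and 16.9 in B220+ cells, or 3.71-fold higher in bone marrow and 3.44-fold higher in spleen Venus+ cells. Both are known from regulated exocytosis in nerve, endocrine and exocrine cells, and both separated the 2 Venus+ arrays from the B220+ array. Rab3a, the main synaptic vesicle member of the family, had 26.2 in bone marrow Venus+, 17.9 in spleen Venus+ and 12.9 in B220+ cells and passed 2-fold in bone marrow Venus+ cells alone (log2 ratio 1.03 ± 0.17). Rab3c was not detected on any of the 3 arrays. Rab27a, Rab27b and Rab37, which serve secretory granules, had log2 ratios between 0.62 and 0.93 in both comparisons, short of 2-fold. Rab8a went the other way, with 146 in bone marrow Venus+, 152 in spleen Venus+ and 271 in B220+ cells (log2 ratios -0.89 ± 0.13 and -0.84 ± 0.14). With the normexp correction, the log2 ratios of Rab3b were 0.68 in bone marrow and 0.97 in spleen Venus+ cells and both of Rab3d were 0.82. Neither gene then reached 2-fold, but the offset narrows ratios at such dim signals, so this loss was set in part by the correction itself.

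**Figure D2:**
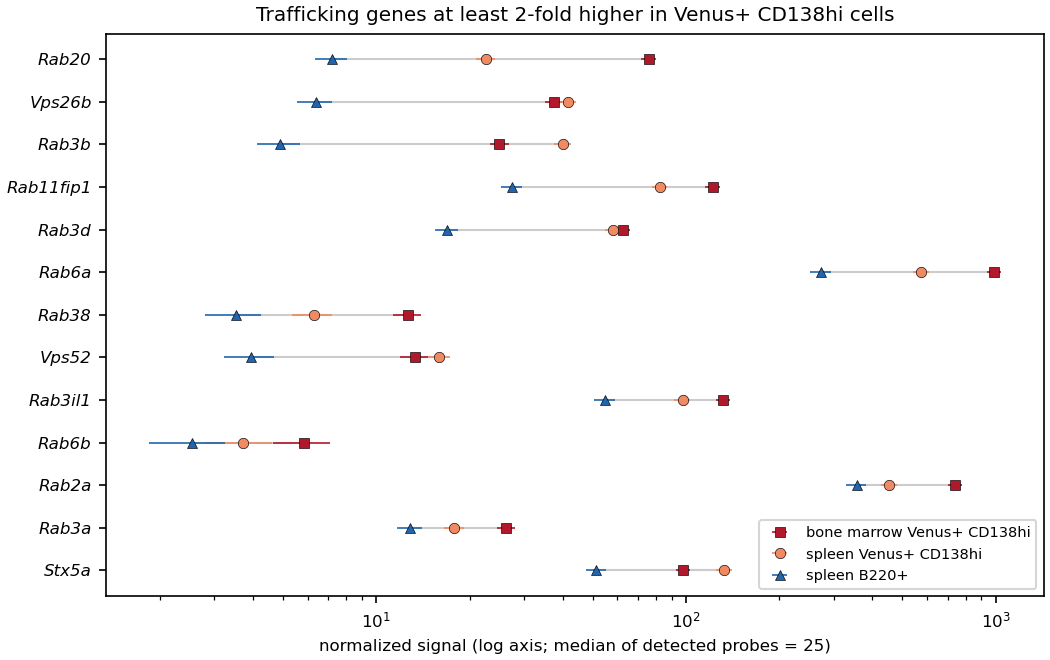
Normalized signal (x axis, log scale) in bone marrow Venus+, spleen Venus+ and spleen B220+ cells, 1 array each, for the genes (y axis) at least 2-fold higher in a Venus+ population than in B220+ cells. Error bars are the spot error of a signal. For Rab20 the 3 populations are well apart (76.0, 22.6 and 7.20), while for Rab3d both Venus+ populations (62.7 in bone marrow and 58.2 in spleen) are close together and above B220+ cells (16.9).

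Early and recycling endosome Rabs were mostly lower, with medians of -0.68 in bone marrow and -0.20 in spleen Venus+ over B220+ cells, and 12 and 13 of 14 measured genes below 0. Most of these differences were small in the spleen, where quantile normalization left 8 of 14 below 0. Within the Rab5 family, which governs early endosome fusion, the 3 paralogues parted. Rab5b had signals of 2.97 in bone marrow Venus+, 15.0 in spleen Venus+ and 43.8 in B220+ cells, 14.7-fold lower in bone marrow and 2.91-fold lower in spleen Venus+ cells. Its bone marrow signal was close to the lowest detected value of that array (2.35), hence the wide error of that ratio (-3.88 ± 0.59). Rab5a (126, 144 and 174) and Rab5c (83.8, 79.6 and 79.8), in the order bone marrow Venus+, spleen Venus+ and B220+, were within 2-fold throughout. The differences among the 3 Rab5 genes are thus in their ratios, not in levels compared across probes.

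Rab20, described on phagosomes and endosomes of macrophages, was the only early or recycling endosome Rab called higher than in B220+ cells. It had 76.0 in bone marrow Venus+, 22.6 in spleen Venus+ and 7.20 in B220+ cells. That is 10.6-fold higher in bone marrow Venus+ and 3.14-fold higher in spleen Venus+ than in B220+ cells, and 3.36-fold higher in bone marrow than in spleen Venus+ cells, so the 3 populations were in a clear order on this probe. Rab22a, an early endosome GTPase, had 35.9 in bone marrow Venus+, 68.4 in spleen Venus+ and 122 in B220+ cells, with a call in bone marrow Venus+ cells (-1.76 ± 0.14). Rab35, which recycles cargo from endosomes to the surface, had 22.0 in bone marrow Venus+, 51.2 in spleen Venus+ and 52.5 in B220+ cells and was lower in bone marrow Venus+ cells alone (-1.25 ± 0.15). Rab11a, the central GTPase of recycling endosomes, had log2 ratios of -0.80 ± 0.13 in bone marrow and -0.38 ± 0.14 in spleen Venus+ cells and was not called.

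Of 7 measured Rabs of late endosomes, lysosomes and related organelles, 5 were below 0 in each comparison with B220+ cells, with medians of -0.93 for bone marrow and -0.64 for spleen Venus+ cells. Rab39, linked to late endosomes and phagosomes, had 16.2 in bone marrow Venus+, 17.6 in spleen Venus+ and 83.2 in B220+ cells, 5.13-fold lower in bone marrow and 4.74-fold lower in spleen Venus+ cells. Its paralogue Rab39b was not detected in B220+ cells, with signals of 21.1 in bone marrow and 12.8 in spleen Venus+ cells, at least 15.7-fold higher in bone marrow and at least 9.52-fold higher in spleen Venus+ cells. The pair thus lay on opposite sides of B220+ cells. Rab38, a GTPase of lysosome-related organelles such as melanosomes, had 12.6 in bone marrow Venus+, 6.27 in spleen Venus+ and 3.52 in B220+ cells, 3.59-fold higher in bone marrow Venus+ cells than in B220+ cells. Rab40b, of a family that recruits ubiquitin ligases, was detected in bone marrow (4.81) and spleen (13.0) Venus+ cells and not in B220+ cells, at least 3.58-fold higher in bone marrow and at least 9.67-fold higher in spleen Venus+ cells.

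The 11 proteins named for the Rabs they bind held genes called in both directions. Rab11fip1, a Rab11 effector on recycling endosomes, had 122 in bone marrow Venus+, 82.2 in spleen Venus+ and 27.4 in B220+ cells, 4.46-fold higher in bone marrow and 3.00-fold higher in spleen Venus+ cells. Rab11fip4 was detected in both Venus+ populations (5.18 in bone marrow, 5.14 in spleen) and not in B220+ cells, at least 3.86-fold higher in bone marrow and at least 3.83-fold higher in spleen Venus+ cells. Rab3il1, an exchange factor of the Rab3 family, had 132, 97.5 and 54.8 in bone marrow Venus+, spleen Venus+ and B220+ cells and was called in bone marrow alone (1.27 ± 0.13). Rab3ip, an exchange factor that activates Rab8, had 12.8 in bone marrow Venus+, 13.7 in spleen Venus+ and 54.5 in B220+ cells, 4.25-fold lower in bone marrow and 3.97-fold lower in spleen Venus+ cells. Rab3ip thus fell while its close relative Rab3il1 did not. Dennd5a, an exchange factor of the DENN family that binds Rab6, had 34.2 in bone marrow Venus+, 52.3 in spleen Venus+ and 145 in B220+ cells, 4.25-fold lower in bone marrow and 2.78-fold lower in spleen Venus+ cells. The partners Rab3gap1 and Rab3gap2, which form a single complex, moved alike, with log2 ratios over B220+ cells of -1.67 ± 0.14 and -1.56 ± 0.14 in bone marrow and of -0.61 ± 0.14 and -0.66 ± 0.14 in spleen Venus+ cells. The 2 probes of Erc1 disagreed and were near the detection limit, with signals of 2.55, 1.85 and 0.50 on one and 0.035, 2.15 and 2.44 on the other in bone marrow Venus+, spleen Venus+ and B220+ cells, so no direction is given for it.

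**Figure D3:**
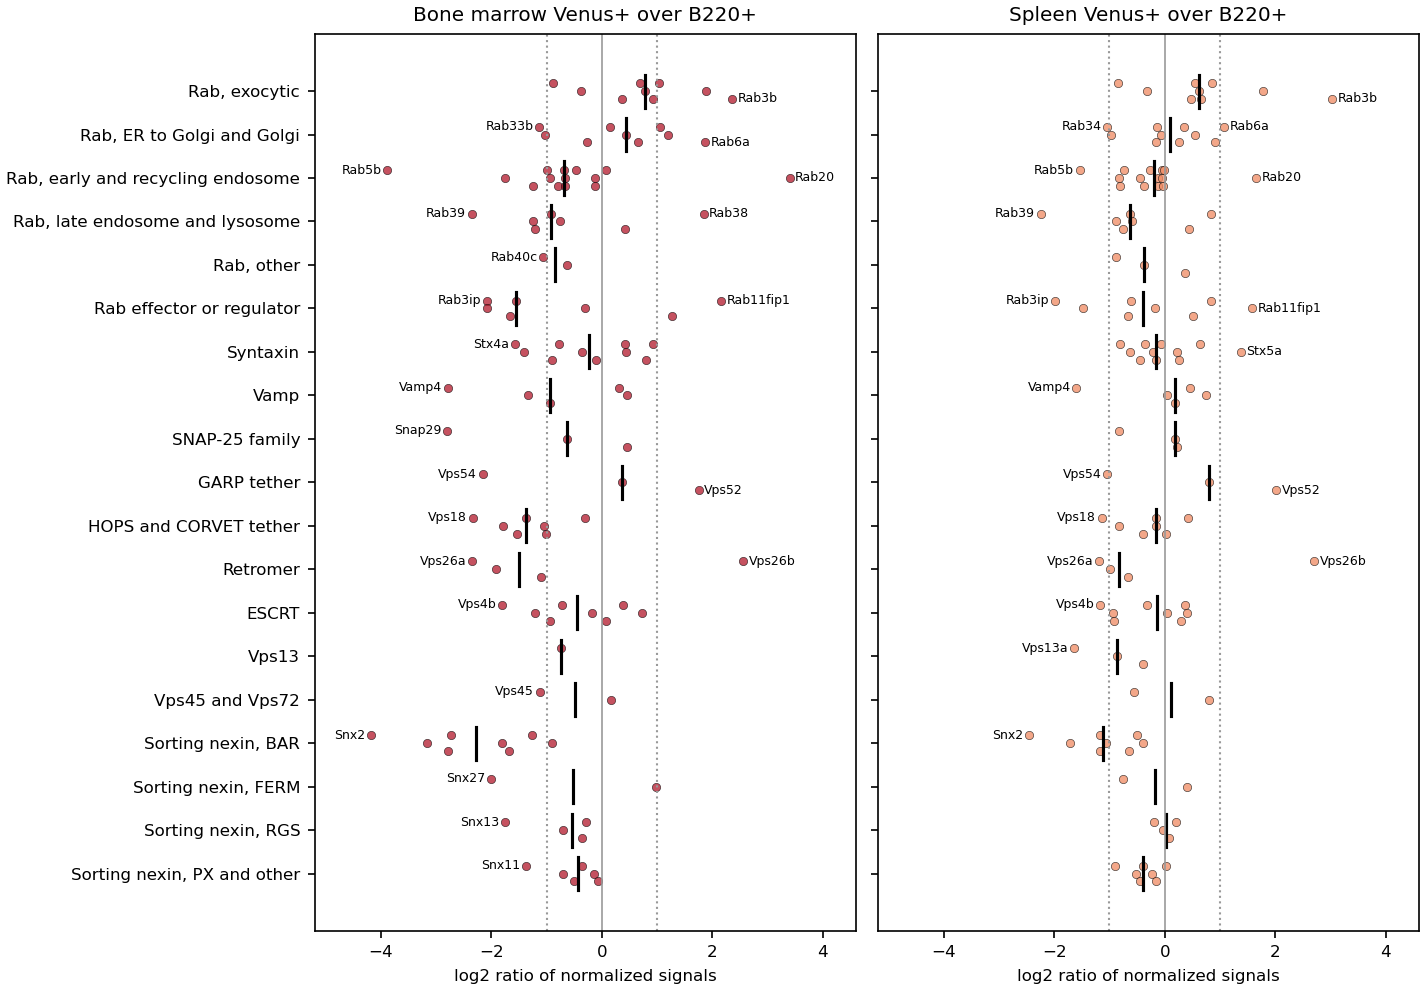
Log2 ratio over B220+ cells (x axis) of each gene detected on both arrays, by role (y axis), for bone marrow Venus+ and spleen Venus+ cells. Bars mark the median of a role, and the BAR sorting nexins have all 8 points below 0 in both comparisons while the exocytic Rabs have 7 of 9 above 0.

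The SNARE genes comprised 12 syntaxins, 5 Vamp and 3 SNAP-25 family genes. Of these 20, 18 were measured in bone marrow Venus+ and B220+ cells, with 0 higher and 5 lower, and 19 in spleen Venus+ and B220+ cells, with 1 higher and 1 lower. In bone marrow Venus+ cells the lower share was 27.8%, near the 30.7% of all genes, and the higher share was 0%, against 22.4% of all genes. In spleen Venus+ cells both shares were 5.26%, against 15.7% higher and 16.5% lower among all genes. The 0 is a count of ratios past 2-fold with no test behind it. It stayed 0 with normexp and became 2, both of them syntaxins, with scaling on the probes detected on all 3 arrays (shared-probe scaling) and with quantile normalization. Median log2 ratios were -0.50 for bone marrow and 0.05 for spleen Venus+ cells. The higher gene was Stx5a, the syntaxin at which ER-derived vesicles fuse with the Golgi. Its signal was 97.9 in bone marrow Venus+, 133 in spleen Venus+ and 51.3 in B220+ cells, so both Venus+ arrays lay above the B220+ array. The log2 ratio was 0.93 ± 0.13 in bone marrow Venus+ cells, just short of 2-fold, and 1.37 ± 0.14 in spleen Venus+ cells.

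Other syntaxins of the secretory route were close to B220+ cells: Stx18 of the ER had log2 ratios of 0.43 and 0.22 in bone marrow and spleen Venus+ cells. Stx11, which serves granule release in lymphocytes, had 53.7 in bone marrow Venus+, 48.2 in spleen Venus+ and 31.0 in B220+ cells, below 2-fold in both. Of the 10 syntaxins measured in bone marrow Venus+ and B220+ cells, 2 (20%) were lower by at least 2-fold, against 30.7% of all genes. Neither passed 2-fold in spleen Venus+ cells. Stx4a, at the plasma membrane, had 125 in bone marrow Venus+, 211 in spleen Venus+ and 372 in B220+ cells, 2.98-fold lower in bone marrow Venus+ cells. Stx7, of late endosomes, had 89.1 in bone marrow Venus+, 152 in spleen Venus+ and 237 in B220+ cells, 2.66-fold lower in bone marrow Venus+ cells. Stx16, which fuses endosome-derived vesicles with the Golgi, was not detected in bone marrow Venus+ cells and had 10.7 in spleen Venus+ and 11.8 in B220+ cells, at least 5.03-fold lower in bone marrow Venus+ cells than in B220+ cells. Stx8, an endosomal syntaxin, had 246 in bone marrow Venus+, 219 in spleen Venus+ and 183 in B220+ cells (0.42 in bone marrow and 0.25 in spleen), above B220+ cells and within 2-fold.

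Among the vesicle SNAREs, Vamp4, which works between endosomes and the Golgi, had 10.3 in bone marrow Venus+, 23.6 in spleen Venus+ and 71.5 in B220+ cells, 6.94-fold lower in bone marrow and 3.03-fold lower in spleen Venus+ cells. Vamp8, of late endosomes and secretory granules, had 516 in bone marrow Venus+, 520 in spleen Venus+ and 378 in B220+ cells and stayed within 2-fold. Vamp1, a vesicle SNARE best known from nerve terminals, had 5.27 in bone marrow Venus+, 13.7 in spleen Venus+ and 13.2 in B220+ cells and was lower in bone marrow Venus+ cells alone (-1.33 ± 0.36). Snap29, which takes part in fusion of autophagosomes and endosomes, had 39.8 in bone marrow Venus+, 157 in spleen Venus+ and 278 in B220+ cells. It was 6.99-fold lower in bone marrow Venus+ cells and 1.78-fold lower in spleen Venus+ cells. Snap23, the plasma membrane member of the family outside neurons, had 96.7 in bone marrow Venus+, 176 in spleen Venus+ and 150 in B220+ cells and was not called in either.

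The measured sorting nexins were mostly lower than in B220+ cells, with 19 of 20 log2 ratios below 0 in bone marrow and 17 of 21 in spleen Venus+ cells. Of 23 genes, 20 were measured in bone marrow Venus+ and B220+ cells. There 0 were higher and 10 (50%) lower, against 22.4% and 30.7% of all genes. In spleen Venus+ and B220+ cells 21 were measured, with 0 higher and 5 (23.8%) lower. The shares of all genes there were 15.7% and 16.5%. The median of all genes was -0.24 in bone marrow Venus+ over B220+ cells. All 5 of the genes lower in spleen Venus+ cells, and 7 of the 10 lower in bone marrow Venus+ cells, were BAR sorting nexins, which bend membrane into tubules that carry cargo out of endosomes. These were 62.5% of the measured BAR genes in spleen and 87.5% in bone marrow Venus+ cells. All 8 measured BAR genes were below 0 in both comparisons, in each of the background and scaling alternatives tried, with medians of -2.28 in bone marrow and -1.11 in spleen Venus+ cells. Snx2 had signals of 165 in bone marrow Venus+, 544 in spleen Venus+ and 2988 in B220+ cells, 18.2-fold lower in bone marrow and 5.49-fold lower in spleen Venus+ cells. Snx5 had 410 in bone marrow Venus+, 1313 in spleen Venus+ and 2738 in B220+ cells, 6.68-fold lower in bone marrow and 2.09-fold lower in spleen Venus+ cells. Both are partners of retromer, and both were lowest in bone marrow Venus+ and highest in B220+ cells. Snx1 and Snx6, which pair with them, were also below B220+ cells. Snx6 had 30.7 in bone marrow Venus+, 33.1 in spleen Venus+ and 74.3 in B220+ cells (-1.27 ± 0.14 in bone marrow and -1.16 ± 0.14 in spleen). Snx1 had 152 in bone marrow Venus+, 201 in spleen Venus+ and 286 in B220+ cells and was not called (-0.91 ± 0.13 in bone marrow and -0.51 ± 0.14 in spleen).

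The BAR nexins that recycle cargo without retromer were lower as well. Snx4 had 66.6 in bone marrow Venus+, 104 in spleen Venus+ and 235 in B220+ cells, 3.52-fold lower in bone marrow and 2.26-fold lower in spleen Venus+ cells. Its partner Snx30 had 8.13 in bone marrow Venus+, 46.7 in spleen Venus+ and 72.9 in B220+ cells, which was 8.96-fold lower in bone marrow and 1.56-fold lower in spleen Venus+ cells. Snx8, which acts in transport from endosomes to the Golgi, had 44.5 in bone marrow Venus+, 93.2 in spleen Venus+ and 306 in B220+ cells, 6.87-fold lower in bone marrow and 3.28-fold lower in spleen Venus+ cells. Snx9, a BAR protein of endocytosis at the plasma membrane, had 26.9, 65.7 and 86.4 and was called in bone marrow Venus+ cells alone (-1.68 ± 0.15). Snx7, another partner of Snx4, was undetected on all 3 arrays.

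Outside the BAR group, Snx27 and Snx17, both FERM-domain nexins that return receptors to the surface, parted. Snx27 had 15.4 in bone marrow Venus+, 37.0 in spleen Venus+ and 62.2 in B220+ cells, 4.04-fold lower in bone marrow Venus+ cells. Snx17 had 712 in bone marrow Venus+, 482 in spleen Venus+ and 363 in B220+ cells, 1.96-fold higher in bone marrow and 1.33-fold higher in spleen Venus+ cells. Of the 23 sorting nexins among the 134 genes, Snx17 had the highest ratio in both comparisons with B220+ cells. Snx33 and Snx21, which carry older symbols in the annotation, had higher ones but were dim in B220+ cells (4.66 and 2.25). Their ratios were 1.73 ± 0.27 and 1.56 ± 0.52 in bone marrow and 1.19 ± 0.28 and 1.34 ± 0.50 in spleen Venus+ cells. Snx10, linked to endosome and lysosome biogenesis, was not detected in bone marrow Venus+ cells and had 22.1 in spleen Venus+ and 29.9 in B220+ cells, at least 12.7-fold lower in bone marrow Venus+ cells than in B220+ cells. Snx13, an RGS-domain nexin, had 7.34 in bone marrow Venus+, 21.7 in spleen Venus+ and 24.8 in B220+ cells (-1.76 ± 0.27 in bone marrow). Snx3, a retromer partner of the PX group, had -0.70 ± 0.13 and -0.52 ± 0.14 and was not called.

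Retromer is the coat that retrieves cargo from endosomes, and its paralogous Vps26 subunits differed in direction. Vps26a had 32.5 in bone marrow Venus+, 73.4 in spleen Venus+ and 167 in B220+ cells, 5.12-fold lower in bone marrow and 2.27-fold lower in spleen Venus+ cells. Vps26b, which takes the same place in the complex, had 37.5 in bone marrow Venus+ and 41.6 in spleen Venus+ cells, against 6.38 in B220+ cells, 5.87-fold higher in bone marrow and 6.51-fold higher in spleen Venus+ cells. The paralogues were thus on opposite sides of B220+ cells in both Venus+ populations. The shared subunits went with Vps26a: Vps35 had 93.6, 177 and 352 in bone marrow Venus+, spleen Venus+ and B220+ cells (-1.91 ± 0.13 in bone marrow and -0.99 ± 0.14 in spleen). Vps29 had 125 in bone marrow Venus+, 169 in spleen Venus+ and 267 in B220+ cells (-1.10 ± 0.13 in bone marrow and -0.66 ± 0.14 in spleen). With normexp, whose offset narrows the ratios of dim genes, Vps26b was still above B220+ cells. Its ratios were then 0.84 in bone marrow and 0.94 in spleen Venus+ cells, no longer 2-fold.

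HOPS and CORVET tether late and early endosomes before fusion. The 7 genes grouped under them here include the core subunits Vps11, Vps16, Vps18 and Vps33a, and also Vps33b, which is a subunit of neither. Vps8, a CORVET subunit, carries an older symbol in the annotation and was not counted (-1.25 ± 0.16 in bone marrow and -0.26 ± 0.14 in spleen Venus+ over B220+ cells). All 7 were below 0 in bone marrow Venus+ over B220+ cells, with a median of -1.38. Of them, 6 (85.7%) were lower by at least 2-fold, against 30.7% of all genes. The 6 became 4 with normexp, with shared-probe scaling or with detection at 3 SD, and 2 with quantile normalization, where the median was -0.82. In spleen Venus+ over B220+ cells 5 of 7 were below 0, with a median of -0.17, which quantile normalization turned to 0.16. There 1 (14.3%) was lower by at least 2-fold, against 16.5% of all genes. Vps18 was the gene called in both, with 26.2 in bone marrow Venus+, 60.1 in spleen Venus+ and 132 in B220+ cells, 5.06-fold lower in bone marrow and 2.20-fold lower in spleen Venus+ cells. Vps33b, a homologue of Vps33a with its own partner, had 60.3 in bone marrow Venus+, 118 in spleen Venus+ and 209 in B220+ cells (-1.79 ± 0.14 in bone marrow and -0.83 ± 0.14 in spleen). Vps39 and Vps41, the subunits particular to HOPS, had -1.01 ± 0.15 and -1.53 ± 0.14 in bone marrow Venus+ cells, against 0.03 ± 0.14 and -0.39 ± 0.14 in spleen Venus+ cells. Vps33a had the smallest difference of the 7 in bone marrow Venus+ cells (-0.30), with 0.43 in spleen Venus+ cells, and signals of 17.6 in bone marrow Venus+, 29.3 in spleen Venus+ and 21.7 in B220+ cells.

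**Figure D4:**
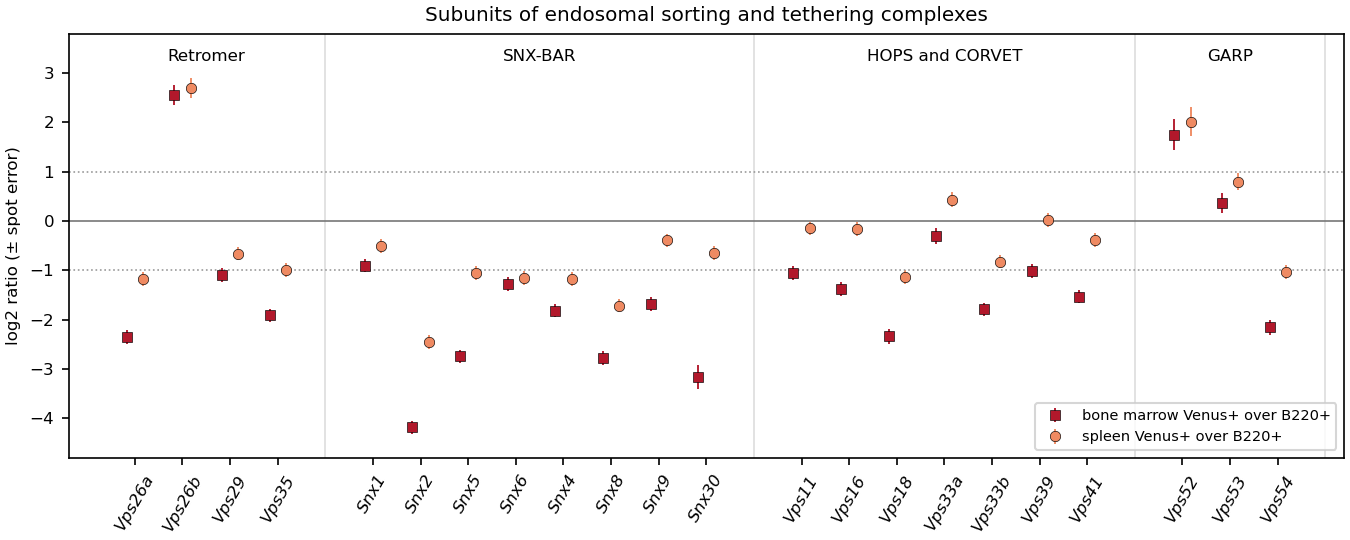
Log2 ratio over B220+ cells (y axis, ± spot error) of single genes of retromer, the BAR sorting nexins, HOPS and CORVET (with Vps33b), and GARP (x axis), for bone marrow Venus+ and spleen Venus+ cells. Vps26b and Vps52 stand above the 2-fold line (dotted) in both populations, while Vps26a, Vps54 and the 8 BAR nexins stand below 0.

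Promoters were also searched for the E-box CACGTG, a run of letters that reads alike on both strands and is bound by TFEB, a regulator of lysosomal genes, and by other factors of its class. In the RefSeq table, which spans 250 bases before to 50 after each start site, 134 promoters belong to 106 of these genes. The E-box was found in 17 of the 134 promoters (12.7%), those of 15 genes, against 7.15% of all 32851 promoters. Windows are shown, with the matched letters in capitals, for the 5 of the 15 genes called in the same direction in both comparisons with B220+ cells. They were picked by their calls, so their number is no result about the motif. Each is the first match of a promoter with its flanks, 5′ to 3′ on the strand of the gene, from RefSeq (GRCm38.p6). Vps26a has 2 promoters in the table.
Vamp4, chr1:162570334-162570375, plus strand: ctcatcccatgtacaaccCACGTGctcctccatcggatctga
Snx5, chr2:144270599-144270640, minus strand: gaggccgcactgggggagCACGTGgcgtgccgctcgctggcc
Snx8, chr5:140389385-140389426, minus strand: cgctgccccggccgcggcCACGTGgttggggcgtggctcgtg
Rab20, chr8:11478663-11478704, minus strand: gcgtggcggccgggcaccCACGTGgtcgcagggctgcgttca
Vps26a, chr10:62486964-62487005, minus strand: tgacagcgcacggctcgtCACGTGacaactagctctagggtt
Vps26a, chr10:62486750-62486791, minus strand: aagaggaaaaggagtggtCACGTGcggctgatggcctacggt
Rab20 was higher in both Venus+ populations than in B220+ cells, while Vamp4, Snx5, Snx8 and Vps26a were lower in both. Rab20 was thus the only gene shown on the higher side. Of the E-box genes not shown, Rab3il1 was higher and Rab24, Rab3gap2 and Vps16 were lower in bone marrow Venus+ cells alone. Rab5a, Rab21, Rab27a, Stx6 and Vps33a stayed within 2-fold in both comparisons, and Rab23 was not detected in bone marrow Venus+ cells. A match is a run of letters and not a measured site, and the motif was chosen after the values had been seen.

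GARP returns vesicles from endosomes to the Golgi, and its 3 genes moved apart. Vps54 had 29.7 in bone marrow Venus+, 64.8 in spleen Venus+ and 133 in B220+ cells, 4.47-fold lower in bone marrow and 2.05-fold lower in spleen Venus+ cells. Vps52 had 13.3 in bone marrow Venus+ and 16.0 in spleen Venus+ cells, against 3.94 in B220+ cells, 3.37-fold higher in bone marrow and 4.05-fold higher in spleen Venus+ cells. Vps53 lay between them, with 14.1, 19.1 and 11.0 in bone marrow Venus+, spleen Venus+ and B220+ cells (0.37 ± 0.20 in bone marrow and 0.80 ± 0.18 in spleen).

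ESCRT genes, which form the vesicles of multivesicular bodies, stayed closer to B220+ cells, with medians of -0.44 in bone marrow and -0.14 in spleen Venus+ cells over 8 genes. Vps4b, an ATPase that disassembles ESCRT, had 73.4 in bone marrow Venus+, 114 in spleen Venus+ and 258 in B220+ cells, 3.51-fold lower in bone marrow and 2.26-fold lower in spleen Venus+ cells. Its paralogue Vps4a was not called (-0.72 in bone marrow and -0.32 in spleen). Chmp3, a subunit of the constricting filament, had 60.9 in bone marrow Venus+, 75.3 in spleen Venus+ and 141 in B220+ cells and was lower in bone marrow Venus+ cells (-1.22 ± 0.14). Vps37c, a subunit of ESCRT-I, was highest of the group, with 200 in bone marrow Venus+, 159 in spleen Venus+ and 120 in B220+ cells (0.73 ± 0.13 in bone marrow and 0.40 ± 0.14 in spleen).

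Vps13a and Vps13c encode lipid transfer proteins and were dim. Vps13a was not detected in bone marrow Venus+ cells and had 2.19 in spleen Venus+ and 6.81 in B220+ cells, at least 2.90-fold lower in bone marrow Venus+ and 3.10-fold lower in spleen Venus+ than in B220+ cells. The spleen ratio had an error of 0.60 on the log2 scale and was -0.01 with normexp. Vps13c was not detected in bone marrow Venus+ cells either, with 3.59 in spleen Venus+ and 6.51 in B220+ cells, at least 2.77-fold lower in bone marrow Venus+ cells than in B220+ cells. Vps45, which assists syntaxin fusion at endosomes, had 23.9 in bone marrow Venus+, 35.5 in spleen Venus+ and 52.2 in B220+ cells (-1.13 ± 0.15 in bone marrow).

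Between the Venus+ plasma cells of the 2 organs the differences ran mostly one way. Of 115 genes detected on both arrays, 2 (1.74%) were higher in bone marrow than in spleen Venus+ cells, against 4.33% of all 11352 genes, and 21 (18.3%) were lower, against 15.2% of all genes. Their median log2 ratio was -0.36, and -0.19 relative to the median of all genes, which was -0.17. The 2 higher genes were Rab20, given above, and Rab38 (1.01 ± 0.27), at the edge of the threshold. A further 8 genes were detected in spleen but not in bone marrow Venus+ cells. Of these, 3 had a bound of at least 2-fold: Snx10 was at least 9.38-fold, Stx16 at least 4.53-fold and Rab34 at least 2.76-fold lower in bone marrow. No gene among the 134 was detected in bone marrow and undetected in spleen Venus+ cells. Over all genes, 11525 were detected in bone marrow and 12422 in spleen Venus+ cells, 11352 of them on both arrays. The lowest detected signal was also higher in bone marrow (2.35) than in spleen Venus+ cells (1.74).

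The genes lowest in bone marrow relative to spleen Venus+ cells were Snx30 (5.74-fold lower), Rab5b (5.06-fold), Snap29 (3.94-fold), Snx2 (3.31-fold), Vamp2 (3.21-fold), Snx5 (3.20-fold), Snx13 (2.95-fold), Rab40b (2.70-fold), Vamp1 (2.60-fold) and Snx9 (2.44-fold). Vamp2, a vesicle SNARE of regulated exocytosis, had 6.25 in bone marrow Venus+, 20.0 in spleen Venus+ and 12.0 in B220+ cells. It was the highest in spleen Venus+ cells of the 3 arrays.

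By group, the HOPS and CORVET genes, with Vps33b counted among them, were all lower in bone marrow, with a median of -1.04. Their 7 of 7 log2 ratios lay between -1.22 (Vps16) and -0.73 (Vps33a). Of them, 4 (57.1%) were past 2-fold, against 15.2% of all genes. The 7 remained below 0 with normexp, shared-probe scaling and quantile normalization, with medians between -0.81 and -0.66, but the 4 past 2-fold became 0 with each of these 3. BAR sorting nexins had a median of -1.18, with 5 (62.5%) called lower. Snx8, Snx9 and Snx30 lost their calls with normexp, Snx8 and Snx9 with shared-probe scaling, and Snx8 with quantile normalization. Of the BAR genes, 8 of 8 were below 0, or 7 of 8 with quantile normalization or scaling on the probes detected on all 3 arrays. Vamp genes had a median of -1.20 over 5 genes, which normexp reduced to -0.17, and 3 (60%) were called lower. These were Vamp1, Vamp2 and Vamp4, and none of them stayed past 2-fold with normexp. Vamp4 also lost its call with shared-probe scaling, and Vamp1 and Vamp2 were dim in bone marrow (5.27 and 6.25). The Rabs of ER and Golgi were on the other side, at a median of 0.40 over 10 genes, with Rab6a (0.78 ± 0.11) the highest and Rab19 (-0.89 ± 0.12) the lowest, and 0 past 2-fold in either direction. With shared-probe scaling 2 of the 10 were past 2-fold higher and the median was 0.73. Exocytic Rabs lay at -0.05, and scaling the arrays on the probes detected on all 3 turned that median to 0.28.

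**Figure D5:**
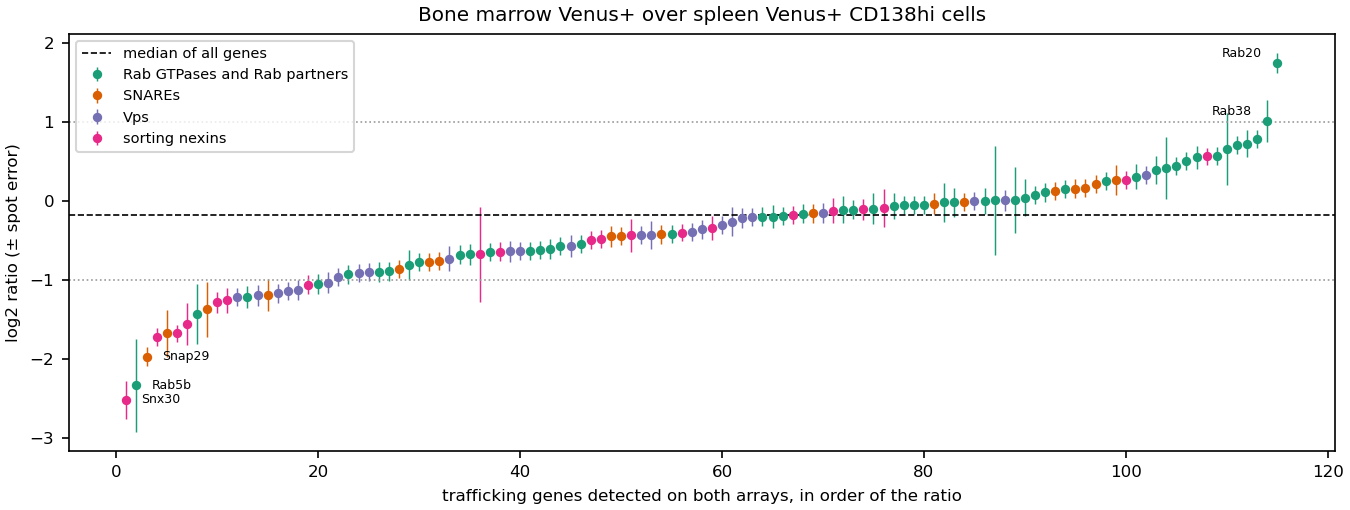
Log2 ratio of bone marrow over spleen Venus+ cells (y axis, ± spot error) for the 115 genes detected on both arrays, in order of the ratio (x axis, rank), coloured by family. Rab20 and Rab38 are the 2 genes past 2-fold higher (upper dotted line), 21 lie past 2-fold lower (lower dotted line), and the dashed line is the median of all genes at -0.17.

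Genes of the same machinery whose names fall outside the pattern were read from 9 lists with 147 genes on the array. In bone marrow Venus+ over B220+ cells, 13 of 125 measured genes (10.4%) were higher, against 22.4% of all genes, and 52 (41.6%) were lower, against 30.7%, with a median of -0.76. In spleen Venus+ over B220+ cells, 9 of 129 genes (6.98%) were higher, against 15.7% of all genes, and 25 (19.4%) were lower, against 16.5%, with a median of -0.12. In bone marrow over spleen Venus+ cells, 1 of 128 genes (0.781%) was higher, against 4.33% of all genes, and 37 (28.9%) were lower, against 15.2% of all genes and 18.3% of the 134. The medians of the 134 genes in these comparisons were -0.70, -0.19 and -0.36.

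Within those lists, Gdi2, which extracts Rabs from membranes, had 42.5 in bone marrow Venus+, 118 in spleen Venus+ and 447 in B220+ cells (log2 ratios over B220+ cells of -3.40 and -1.92). Rabac1, which binds prenylated Rabs at the Golgi, had 2433 in bone marrow Venus+, 1984 in spleen Venus+ and 857 in B220+ cells (1.51 in bone marrow and 1.21 in spleen). The 2 were at opposite ends of the list of Rab recycling factors. Dennd4a, an exchange factor, had the lowest ratio of all the lists (-4.53 ± 0.44 in bone marrow and -2.51 ± 0.16 in spleen). The brighter of its 2 probes had 4.07 in bone marrow Venus+, 16.6 in spleen Venus+ and 94.2 in B220+ cells. Its bone marrow signal was near the lowest detected there (2.35). Rilpl1, related to a Rab7 effector, had the highest ratio (4.13 ± 0.56 in bone marrow and 4.43 ± 0.56 in spleen). Its signals were 31.3 in bone marrow Venus+, 38.7 in spleen Venus+ and 1.79 in B220+ cells, the last near the lowest detected there (1.34). Napb, an adaptor that helps take SNARE complexes apart, had 55.3 in bone marrow Venus+, 32.0 in spleen Venus+ and 5.61 in B220+ cells (3.30 in bone marrow and 2.51 in spleen), and its relative Napg 12.4, 41.8 and 101 (-3.02 in bone marrow and -1.27 in spleen). Sec22b, the vesicle SNARE that pairs with Stx5a between ER and Golgi, had 522 in bone marrow Venus+, 317 in spleen Venus+ and 206 in B220+ cells (1.34 in bone marrow and 0.63 in spleen). It was the 1 SNARE of 12 in its list to pass 2-fold upward in bone marrow, and 3 passed 2-fold downward there. These 3 were Gosr1 (-1.69), Ykt6 (-1.57) and Bnip1 (-1.82), with spleen ratios of -0.62, -0.55 and -1.18.

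A further 22 genes on the array have a current symbol of the same pattern but an older symbol in the annotation, and so were not among the 134. Of them, 19 were measured in each comparison. In bone marrow Venus+ over B220+ cells 4 (21.1%) were higher and 7 (36.8%) lower, against 22.4% and 30.7% of all genes. In spleen Venus+ over B220+ cells 4 (21.1%) were higher and 1 (5.26%) lower, against 15.7% and 16.5% of all genes. Bone marrow over spleen Venus+ cells gave 0 higher and 3 (15.8%) lower, against 4.33% and 15.2% of all genes. Vamp5, a Vamp family member with a role at the surface, was lowest in each comparison with B220+ cells, with 54.5 in bone marrow Venus+, 172 in spleen Venus+ and 407 in B220+ cells (-2.90 in bone marrow and -1.25 in spleen). Stx19 was highest, with 37.4 in bone marrow Venus+, 23.6 in spleen Venus+ and 8.19 in B220+ cells (2.19 in bone marrow and 1.53 in spleen). Snap47, a SNAP-25 relative, had 52.0 in bone marrow Venus+, 37.0 in spleen Venus+ and 16.4 in B220+ cells (1.67 in bone marrow and 1.17 in spleen). The GARP and EARP partners Vps50 (-1.53 in bone marrow and -0.78 in spleen) and Vps51 (-0.77 in bone marrow and 0.08 in spleen) lay below B220+ cells in bone marrow.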

How the data were processed

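Values came from 3 single-colour arrays. The authors deposited scanner files that, per the file headers, hold the median Cy5 intensity of each spot, along with their own processed intensity table. According to the series' design text, a blank mean taken over a 95% interval was removed from every spot, and detected signals were then scaled to a median of 25. Recomputed here from the scanner files with the middle 90% of the blank spots and a limit of 2 SD, detection calls differed from the deposited table for 0 probes. That table is linear and uncentred, its column medians were 25, and its arrays run in the direction of the spot medians. Faulty spots (2, 1 and 0 in bone marrow Venus+, spleen Venus+ and B220+) were left out. The brightest probe stood for a gene. Blank SDs were 1.18, 0.868 and 0.670 in normalized signal, and control spots, 24 copies each, varied by 5.21%, 5.77% and 7.57%. With 1 array per population, the number of arrays limits the precision.

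A bound for a gene detected on 1 array is its signal over the higher of the dim array's lowest detected signal and the dim probe's own. The genes named are, in each comparison and direction, the 10 largest calls, the bounds of at least 2-fold and many, not all, of the extremes of the role groups. Others were named as members of a role group. From the lists outside the pattern, extremes of some lists and a few other genes are named. Membership followed the name pattern alone. The pattern, the role lists and the promoter motif were chosen with earlier results of these data known. The alternatives were the deposited table, normexp (offset 50), scaling on shared probes, quantile normalization, a 3 SD limit, a signal of at least 10, the probe mean and a 3-fold threshold. The normexp offset was added to every corrected spot before scaling. Ratios of dim genes are narrowed by it in either direction, so a call lost with normexp alone does not decide whether the difference was real. Python 3.11.15, pandas 2.3.3, numpy 2.4.6, R 4.3.3 and limma 3.58.1 were used, with RefSeq GRCm38.p6 for names and promoters.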

Additional observations from a re-analysis of the deposited data

Results flagged for a closer look

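Vamp2, a vesicle SNARE of regulated exocytosis, was the gene whose ratios to B220+ cells had opposite signs in the Venus+ cells of the 2 organs, each by more than 2 spot errors. The log2 ratio was -0.94 in bone marrow Venus+ cells and 0.74 in spleen Venus+ cells, and the difference was not tested. Both ratios use the same B220+ array, so the contrast rests on signals of 6.25 in bone marrow and 20.0 in spleen Venus+ cells. With normexp the ratios were -0.01 and 0.29, with scaling on shared probes -0.64 and 0.71, and with quantile normalization -1.01 and 0.52.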

How the results depend on the processing

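With 1 array per population, leaving out a replicate was not possible. No paired analysis was possible because each population has a single array and no replicate numbers. Every gene called at 2-fold kept its direction under each alternative in which it was measured, and the values of the deposited table gave the same counts. Normexp gave 3 genes higher in bone marrow Venus+ over B220+ cells (Rab20, Rab11fip1 and Rab6a), against 12, and 35 lower, against 41. Calls among all genes fell as well, to 5.35% higher, against 22.4%, and 19.8% lower, against 30.7%. In spleen Venus+ over B220+ cells normexp gave 0 higher, against 8, and 10 lower, against 16. Of all genes, 3.53% were higher there, against 15.7%, and 10.1% lower, against 16.5%. In bone marrow over spleen Venus+ cells normexp gave 0 higher and 3 lower, against 2 and 21, with a median of -0.17. All genes gave 0.546% higher and 2.78% lower there, against 4.33% and 15.2%. Requiring a signal of at least 10 on both arrays left 6, 4 and 1 genes higher in the order of comparisons just given. The shares of all genes that were higher were then 14.5%, 9.85% and 3.16%. The 3-fold threshold left 22, 6 and 6 genes lower, and 1 gene higher in bone marrow over spleen Venus+ cells. Among all genes 19.1%, 6.26% and 5.14% were lower at 3-fold, and 1.04% were higher in bone marrow over spleen Venus+ cells.

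Scaling changed the bone marrow comparisons, where it moved the median of all genes. Scaling on probes detected on all 3 arrays raised that median by 0.29 for bone marrow Venus+ over B220+ cells. The median of the trafficking genes became -0.41 there. For bone marrow over spleen Venus+ cells the rise was 0.33, and the median of the trafficking genes became -0.0299, with 5 genes higher and 9 lower. Of all genes, 11% were higher and 8.07% lower in that comparison. Quantile normalization gave 26 lower and a median of -0.27 for bone marrow Venus+ over B220+ cells. It gave 13 lower and a median of -0.11 for bone marrow over spleen Venus+ cells. The shares of all genes that were lower were 24.5% and 10.2% with it. The share of calls that were higher was 22.6% in bone marrow Venus+ over B220+ cells, 38.3% with shared-probe scaling, 38.1% with quantile normalization and 7.89% with normexp. It was 33.3% in spleen Venus+ over B220+ cells, 45.5% with quantile normalization and 0% with normexp. In bone marrow over spleen Venus+ cells it was 8.70%, 35.7% with shared-probe scaling and 18.8% with quantile normalization. In the same order, the shares among all genes were 42.2%, 53.9%, 50.8% and 21.3% for bone marrow Venus+ over B220+ cells. They were 48.8%, 46.4% and 25.9% for spleen Venus+ over B220+ cells, and 22.2%, 57.7% and 51.3% for bone marrow over spleen Venus+ cells. Relative to all genes, shared-probe scaling left the medians at -0.45 and -0.19 for the 2 bone marrow comparisons. Of 1073 values of single genes and role groups under an alternative, 713 moved by less than the spot error and 360 by more. The 713 does not measure stability, because some alternatives could hardly move a value. A signal of at least 10 only leaves genes out, and the probe mean can alter only the 2-probe gene Erc1. The deposited table comes from the same spots. For dim genes such as Rab6b, Rab38, Vps13a and Vps13c, signal over background limits the precision.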
